A study of Quercus ilex with 12 samples.

Results

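Leaf mRNA of holm oak (*Quercus ilex*) seedlings without irrigation was compared with that of watered seedlings of the same age at the second of 2 samplings. The 6 libraries were chosen by their sample labels, 3 of drought and 3 of control (well watered), out of 12 libraries in the series. The other 6 libraries hold the same 2 treatments at the first sampling and are used here as a point of comparison. They also enter the main edgeR fit, where the low-count filter, the scaling and the estimate of spread rest on all 12 libraries. All seedlings were 6 months old and differed by treatment alone as far as the labels say. No allele, line or second agent is named for any group. The labels place the second sampling at 25 days and the series text at 24 days (20 and 17 days for the first). The replicates are called biological, but no source used here says how many seedlings stand behind a library. Each library gives an estimated count and a TPM value (a share of transcripts that is scaled for contig length) for 47,568 assembled contigs. The contigs carry an identifier and a length but no gene name, so the results are given by level, size and pattern. For the same reason no leaf marker gene could be looked up to check the tissue label.

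Holm oak is an evergreen of dry Mediterranean woodland and keeps its leaves through the summer drought. When the soil dries, abscisic acid signalling closes the stomata, which saves water but also limits carbon uptake. In leaves of many plants the mRNAs of photosynthesis and growth then decline, while mRNAs for protective proteins, osmolyte synthesis and detoxification of reactive oxygen increase. This is general background, because none of these groups could be identified among contigs without names. In whole leaves, fewer cells of a type and less mRNA per cell cannot be told apart.

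The total of estimated counts was 17,160,249, 21,743,618 and 22,317,053 in the drought libraries and 27,847,896, 24,161,722 and 11,239,487 in the control libraries. The shallowest and the deepest library were thus both controls, and the sums of the groups were close (61,220,920 for drought and 63,249,105 for control). All 6 libraries had counts for 28,349 contigs, and none of them had any for 2,202. Replicates did not resemble each other equally. Drought replicates 1 and 2 correlated with r = 0.954 across the 33,602 contigs tested on log2(CPM + 1), where CPM is the count scaled to library size, and control replicates 1 and 3 with 0.932. Drought replicate 3 reached at best 0.884 within its group and 0.875 with a control of the second sampling, but 0.928 with a first-sampling control. Control replicate 2 reached at best 0.89 within its group, 0.9 with drought replicate 1 and 0.927 with a first-sampling control. By this measure control replicate 2 went against its label within the sampling, and drought replicate 3 only through a first-sampling library. Results that rest on these 2 libraries are given with and without them. Both were singled out on these same values, so a wider contrast without them partly follows from the choice and gives no support.

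The change with drought was broad and of moderate size, and few contigs passed the test. The fitted log2 fold change, drought over control, had a median of 0.04 and a median absolute size of 0.78 over the 33,602 contigs tested, those with enough counts, and 90% of contigs lay between -2.82 and 2.29. The median standard error of a single contig was 0.66. The typical change was therefore close to its own error. At least 4-fold higher under drought were 2,210 contigs (6.58%), and at least 4-fold lower were 3,041 (9.05%). With all 6 libraries the long tail was on the lower side. At 8-fold or more 1,497 contigs were lower and 894 higher, and at 32-fold or more 462 were lower and 283 higher. The order of the 4-fold counts depended on control replicate 2. Without it, higher contigs outnumbered lower ones at 4-fold in each class of level under 100 CPM. They numbered 1,953 against 777 under 1 CPM, 1,515 against 1,152 at 1 to 10 CPM, and 916 against 848 at 10 to 100 CPM. At 100 CPM or more 136 were higher and 387 lower. Without drought replicate 3 as well, only the class under 1 CPM had more higher contigs (1,698 against 1,343). A large fold change did not mean that the groups were apart: of the 2,210 contigs only 1,008 had all 3 drought libraries above all 3 controls, and of the 3,041 only 1,639 had all 3 below.

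By edgeR's quasi-likelihood test with Benjamini-Hochberg adjustment, fitted on all 12 libraries, 3 contigs (0.00893%) passed an adjusted p of 0.05 as higher under drought. As lower 0 (0%) passed. In a fit of the 6 second-sampling libraries alone 1 contig passed, as lower, and none of these 3 did. Without adjustment, 3,583 contigs (10.7%) were higher and 4,024 (12%) lower at a p under 0.05. With DESeq2 1,755 contigs were called higher and 2,535 lower, and with limma-trend on log2(TPM + 1) the numbers were 142 and 87. The number called depended on control replicate 2, which was singled out by its likeness to libraries of other groups. Without it edgeR called 2,145 contigs higher and 1,816 lower, and without it and drought replicate 3 1,995 higher and 1,582 lower. Without drought replicate 3 alone 27 were higher and 10 lower. Without drought replicate 2, control replicate 1 or control replicate 3 the test called 0 contigs.

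**Figure D1:**
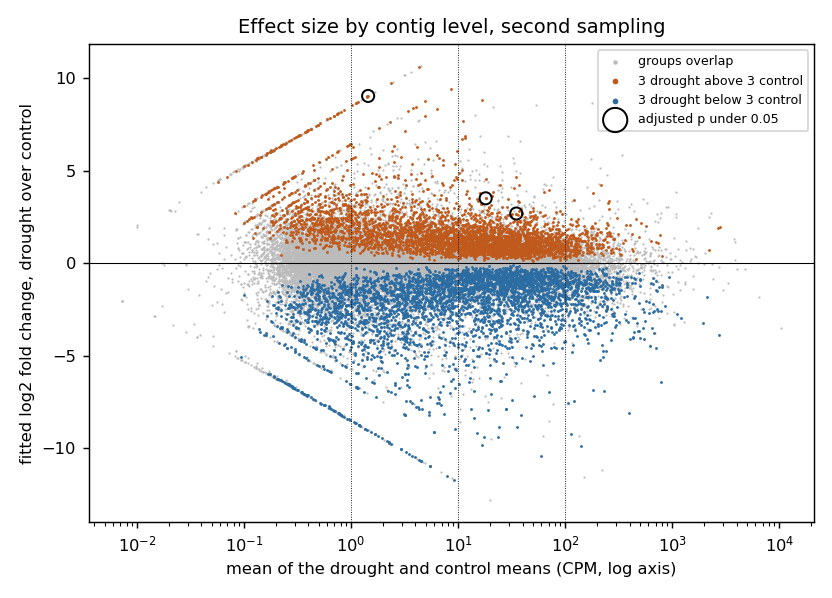
Fitted log2 fold change (drought over control, vertical axis) of each of the 33,602 contigs tested against its level, the mean of both group means in CPM (log axis), at the second sampling. Orange contigs have all 3 drought libraries above all 3 controls (3,936), blue ones all below (3,918), and open circles mark the 3 contigs past the adjusted threshold; the sloping lines at the left are contigs with 0 or very few counts in one group, whose fitted fold change depends on the small prior count of the fit and is no bound.

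Counted without a model, 3,936 contigs (11.7%) had all 3 drought libraries above all 3 controls and 3,918 (11.7%) had all 3 below, on CPM scaled by TMM, a normalization that assumes that most contigs do not change. This balance of directions depended on the scaling. On TPM, which has no such step, 5,349 contigs (15.9%) were higher and 2,875 (8.56%) lower, and on CPM by total count 5,033 were higher and 3,088 lower. The median log2 fold change of all contigs was 0.18 on log2(TPM + 1), against 0.04 in the edgeR fit, and at an unadjusted p under 0.05 limma-trend placed 5,255 contigs higher and 2,670 lower. The size of the change differed by direction as well. Among contigs whose groups did not overlap, the median log2 fold change was 1.33 for those higher and -1.73 for those lower. The higher contigs were also longer (median 1,334 bases) than the lower ones (1,016 bases), while contigs with overlapping groups had a median of 1,087 bases.

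The differences between libraries of one treatment overlapped with those between libraries of different treatment. The share of TPM that differs between the drought mean and the control mean was 31.1%, that is, 31.1% of the leaf mRNA by this measure would have to be given to other contigs to turn one mean into the other. A mean of 3 libraries varies less than a single library, so this value is not on a par with those of pairs. Between single libraries of different treatment the share was 26.1% to 50.0%. It was 16.8%, 33.2% and 34.2% between drought libraries and 20.3%, 34.0% and 41.7% between control libraries. The ranges overlapped through the same libraries that stood apart above. Control replicate 2 differed from drought replicates 1 and 2 by only 26.1% and 27.5%, but from control replicate 1 by 41.7%. Without control replicate 2 the group means differed by 39.4%, and without it and drought replicate 3 by 42.4%. No test was made of these shares.

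**Figure D2:**
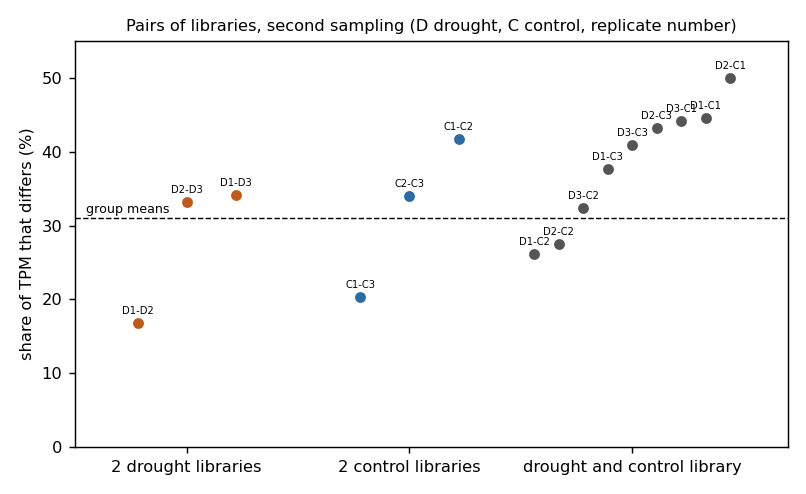
Share of TPM that differs between pairs of libraries of the second sampling (vertical axis, %), for 2 drought libraries (orange), 2 control libraries (blue) and a drought with a control library (grey), with D or C and the replicate number beside each point. The dashed line is the 31.1% between the group means, which vary less than single libraries and are not on a par with the pairs. Pairs of one treatment lie between 16.8% and 41.7% and pairs of different treatment between 26.1% and 50.0%.

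Abundant contigs carried most of the difference in amount, close to their share of all counts and TPM, without a few of them dominating it. Contigs with a mean of at least 100 CPM were 2,158 of the 33,602 tested, held 54.2% of the counts and made up 57.0% of the summed TPM difference. Contigs under 1 CPM were 7,509, held 0.353% of the counts and made up 0.806% of it. The 10 contigs with the largest difference in TPM accounted for 7.92% of the sum and the first 1,000 for 56.7%. Leaving out the 10 most abundant contigs changed the 31.1% only to 30.8%. For the TPM that was higher under drought 431 contigs made up 50%, and for the TPM that was lower 282 contigs did. The first 10 contigs, however, made up 13.2% of the gain and 9.97% of the loss, so neither direction was the more concentrated by both measures. The contigs of at least 100 CPM together held 51.2% of TPM under drought and 54.6% in controls, while those of 10 to 100 CPM held 41.5% under drought and 38.9% in controls.

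The most abundant contig of the 6 libraries also had the largest TPM difference. This contig of 482 bases had 13,986.12, 11,716.65 and 7,810.81 TPM in the drought libraries, against 772.78, 5,298.8 and 1,872.5 TPM in the control libraries. The groups did not overlap, but the controls differed from each other several-fold, and the log2 fold change of 1.92 had an adjusted p of 0.177 (edgeR), above the threshold. First-sampling levels were 8,079.22, 15,447.75 and 16,183.62 TPM under drought, against 12,702.86, 2,470.65 and 6,655.12 TPM in controls, and there the groups overlapped. The largest loss fell on a contig of 3,103 bases and came mostly from a single library. It had 567.83, 630.27 and 375.08 TPM in the drought libraries, against 358.62, 14,484.64 and 1,595.69 TPM in the control libraries. Control replicate 2 was far above the other libraries, and this contig took 4.8% of its counts. The next largest loss was not of that kind: a contig of 604 bases had 1,265.41, 288.21 and 614.33 TPM under drought, against 6,540.22, 2,351.88 and 7,971.11 TPM in controls (log2 fold change -3.22, edgeR adjusted p = 0.0853). Its 3 controls all lay above its 3 drought libraries.

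Among the 100 most abundant contigs by mean TPM of the 6 libraries, 4 had all drought libraries above all controls, 19 had all below and 77 overlapped, against 11.7% above and 11.7% below of all contigs tested. Among the first 10 the balance was the other way, with 2 above, 0 below and 8 overlapping. The mean that ranks these contigs is taken over the compared libraries, so a contig high in either group is favoured, and the counts are a description. The 100 contigs held 14.0% to 21.4% of TPM in the 6 libraries.

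The change in single contigs was largest, but also least certain, in rare contigs. The median absolute log2 fold change was 1.06 under 1 CPM, 0.83 at 1 to 10 CPM, 0.62 at 10 to 100 CPM and 0.78 at 100 CPM or more. The share of contigs whose groups did not overlap was lowest in the rare class, with 15.8%, 22.2%, 28.0% and 29.4% in the same order. The groups of rare contigs thus overlapped more often although their fold changes were larger. Under 1 CPM the median difference between the group means on log2(CPM + 1) was 0.27, no larger than the median SD within the groups (0.292 for drought and 0.308 for control, n = 3 each). At 100 CPM or more it was 0.8, larger than the SD within drought (0.453) and within control (0.601). The SD is that of single libraries and not of a mean of 3, so it is no error of the difference. Adding 1 narrows both values at low levels, so their size cannot be compared between the classes. In each of the 4 classes the controls were the more variable group.

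The balance of directions differed with the level. At least 4-fold higher were 13.2% and at least 4-fold lower 11.9% of contigs under 1 CPM, while at 100 CPM or more 3.01% were at least 4-fold higher and 10.5% at least 4-fold lower. Among these abundant contigs 10.4% (224) had all drought libraries above and 19.0% (411) all below the controls, and the median log2 fold change was -0.26. This excess of lower contigs depended on how abundance was defined. With the classes set by the first-sampling libraries, which are not among the compared ones, 16.9% of the 1,734 contigs of at least 100 CPM were higher and 10.2% lower (median 0.21). On TPM values with the second-sampling classes 14.3% were higher and 14.7% lower. With classes set by TPM instead of CPM the excess was larger, at 8.1% higher and 23.3% lower (median -0.33) at 100 TPM or more. By overlap the excess also depended on drought replicate 3: without it 24.1% were higher and 26.2% lower. At 4-fold the excess stayed without that library, with 3.89% higher and 11.6% lower. Without control replicate 2 the shares without overlap were 18.3% higher and 48.1% lower. Without both libraries they were 30.2% and 51.8% (with fewer libraries, groups overlap less by construction). The balance under 1 CPM was no steadier. At least 4-fold higher and lower were 24.9% and 9.89% without control replicate 2, but 10.7% and 19.3% without drought replicate 3. With first-sampling classes they were 12.6% and 16.9%.

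The contigs above 100 CPM at only 1 of the samplings differed most between these definitions. Of the abundant contigs, 1,488 had at least 100 CPM at both samplings, and among them 14.9% were higher and 11.8% lower (median log2 fold change 0.10). Another 670 reached 100 CPM at the second sampling only, of which 0.448% were higher and 35.1% lower. Their median level was 85.0 CPM under drought and 176 CPM in controls at the second sampling, against 55.3 CPM and 76.6 CPM at the first. They were thus contigs with a high level in the second-sampling controls. Conversely, of 246 contigs that reached 100 CPM at the first sampling only, 29.3% were higher and 0.407% lower. A mean over the compared groups favours contigs that are high in either, so these shares describe the classes and were not tested.

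**Figure D3:**
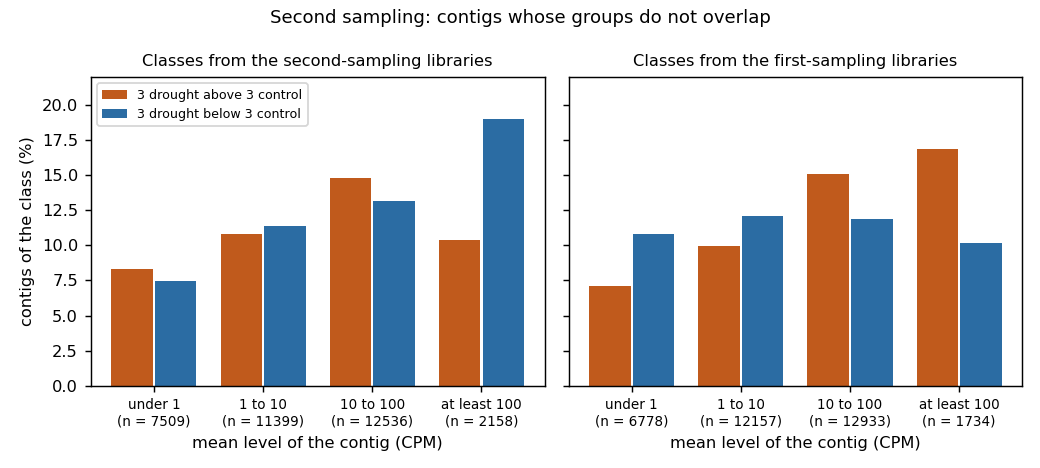
Share of contigs (vertical axis, %) with all 3 drought libraries above (orange) or below (blue) all 3 controls of the second sampling, in 4 classes of mean level in CPM; n is the number of contigs in a class. With classes from the second-sampling libraries (left) the most abundant class has 10.4% higher and 19.0% lower, and with classes from the first-sampling libraries (right) 16.9% higher and 10.2% lower.

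Few contigs were silent in one treatment and expressed in the other. With silence taken as an estimated count of 0 in all 3 libraries of a group, and expression as at least 10 counts in each of the other 3, 9 contigs (0.0189%) were silent in controls and expressed under drought, and 33 (0.0694%) were silent under drought and expressed in controls. A lower limit raised both numbers and kept their order: with at least 3 counts they were 42 and 118, and with at least 1 count 216 and 293. With at least 30 counts they were 3 and 9. Contigs silent under drought thus outnumbered contigs silent in controls at each of these limits. The order was also kept when all libraries were thinned to the total of the shallowest (6 and 30). It turned when control replicate 2 was left out, with 79 silent in controls and 55 silent under drought, and without that library and drought replicate 3 the numbers were 191 and 153. At the first sampling the same criterion gave 5 contigs (0.0105%) silent in controls and 8 (0.0168%) silent under drought.

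A count of 0 in a group allows up to 3 counts over its libraries, which is 0.0483 CPM for drought and 0.0538 CPM for controls, so lower expression was not detectable at this depth. The silent contigs were at low levels where they were expressed, though 7 of the 9 and 32 of the 33 had a mean of at least 1 CPM there. The 9 contigs silent in controls had means of 0.586 to 4.77 CPM (median 2.04) under drought and were 357 to 1,713 bases long (median 1,217). The 33 contigs silent under drought had means of 0.76 to 10.9 CPM (median 2.37) in controls and were 270 to 3,555 bases long (median 944). In neither set did a contig reach a mean of 100 CPM, so abundant contigs were not among them. Of the 9 contigs 1 passed the adjusted threshold (edgeR), and of the 33 none did, although all 42 had an unadjusted p under 0.05; a contig with 0 in a group had to differ, and this count gives no support.

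The first-sampling libraries, which the choice of these contigs did not use, held counts of most of them under both treatments. All 9 contigs silent in the second-sampling controls had counts in at least 1 first-sampling control, and 7 had counts in at least 1 first-sampling drought library. Their summed level was 17.5, 22.9 and 17.1 CPM in the drought libraries and 0 in the controls of the second sampling, and at the first sampling 8.45, 11.8 and 13.1 CPM under drought and 9.89, 15.3 and 11.0 CPM in controls. Drought and control thus overlapped at the first sampling, while the order at the second was fixed by the choice of contigs. The 33 contigs silent under drought had a summed level of 0 under drought and 141, 98.3 and 133 CPM in controls at the second sampling. At the first they had 42.1, 46.0 and 1.42 CPM under drought, against 42.5, 84.3 and 66.6 CPM in controls. Control replicate 2 of the first sampling had 32 of the 33 above 0, and drought replicate 3 only 8. For these contigs the first-sampling libraries of both treatments lay between the groups of the second, and 3 of the 33 were lower and 0 higher under drought without overlap (10.8% and 11.6% of all contigs tested were).

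**Figure D4:**
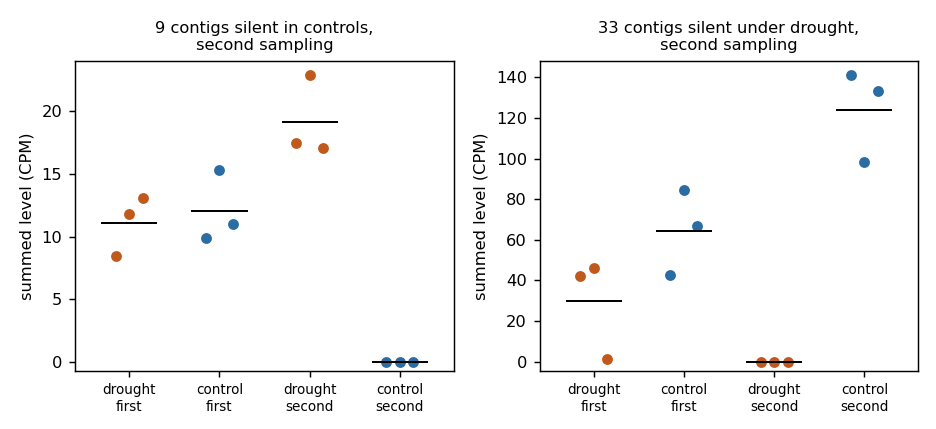
Summed level in CPM (vertical axis) of the 9 contigs silent in the second-sampling controls (left) and the 33 contigs silent under drought at the second sampling (right), in each library of the 4 groups (points; bars are means of 3). The left set is at 0 only in the second-sampling controls and at 8.45 to 15.3 CPM in the first-sampling libraries, and the right set is highest in the second-sampling controls, at 98.3 to 141 CPM.

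At most 2 contigs in each direction are named, because the files pair no identifier with a gene. contig-1897000000, 3,819 bases long, had the smallest p of all. It had 19.4, 46.6 and 33.8 CPM in the drought libraries, against 2.49, 3.33 and 2.93 CPM in the control libraries. The lowest drought library lay well above the highest control, with a log2 fold change of 3.51 (SE 0.34, edgeR adjusted p = 0.016). The call was lost without control replicate 1 (adjusted p = 0.2), control replicate 3 (0.136) or drought replicate 2 (0.0515), in a fit of the 6 libraries alone (0.0954) and with replicate number as a block in the fit (0.0862); over 16 alternatives the adjusted p ran from 7.83e-19 to 0.2. At the first sampling this contig had 28.2, 25.4 and 30.1 CPM under drought, against 47.3, 39.5 and 40.9 CPM in controls. There all 3 drought libraries lay below the controls, the opposite order.

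contig-4292000005, 1,713 bases long, had the highest level in its lowest library among the contigs silent in controls. It had 52.24, 52.98 and 72.84 estimated counts under drought, that is 3.13, 2.35 and 3.18 CPM, against 0 in each control. With the controls set to 3 counts over the group it was at least 53.7-fold higher under drought (edgeR adjusted p = 0.0406, from 1.94e-07 to 0.2 over 15 alternatives). The call was lost without control replicate 1 or 3, without drought replicate 1 or 2, in the fit of 6 libraries and with the replicate block (0.0962). At the first sampling it had 3.45, 4.75 and 2.98 CPM under drought, against 1.56, 0.932 and 1.07 CPM in controls, again with every drought library above every control. The third contig past the threshold, 1,490 bases long, had 53.1, 57.2 and 71.3 CPM under drought, against 7.04, 13.1 and 8.04 CPM in controls (log2 fold change 2.68, SE 0.32, edgeR adjusted p = 0.0408). Its first-sampling levels overlapped, at 20.7, 33.0 and 22.8 CPM under drought and 30.2, 23.7 and 26.2 CPM in controls, and lay between the groups of the second sampling.

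Of the contigs that were lower, contig-87000016, 4,237 bases long, had the smallest p. It had 0, 4.92 and 2.09 estimated counts under drought, against 562, 581.7 and 294 in controls, that is 0.103 ± 0.11 CPM under drought and 26.6 ± 2.93 CPM in controls (SD, n = 3 each). The 3 controls differed little from each other, and the drought libraries were all near 0. The log2 fold change of -7.87 (SE 1.03) narrowly missed the threshold (edgeR adjusted p = 0.0615), and 6 of 15 alternatives took it past, among them DESeq2 (3.2e-22) and the fit without control replicate 2 (0.0111). In the 6 first-sampling libraries of both treatments it had at most 1.69 counts. Of the 12 libraries only the 3 second-sampling controls thus held more than 5 counts of it. Tested between the samplings, its drought effect had an edgeR adjusted p of 0.488 for the difference.

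The contig with the next smallest p among those lower had the same pattern, at 0.12, 0 and 0.305 CPM under drought, against 74.7, 65.7 and 70.0 CPM in controls, and at most 0.194 CPM in any first-sampling library. In all, 3 contigs had at least 100 counts in each second-sampling control and at most 10 in each of the other 9 libraries, with mean levels of 26.6 to 70.1 CPM. All of them are lower under drought by this choice. The same criterion gave 0 contigs for the second-sampling drought group, and at the first sampling 0 for drought and 2 for controls. With a limit of 30 counts the numbers were 0 for drought and 8 for controls at the second sampling, and 0 for drought and 4 for controls at the first.

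contig-2688000019, 780 bases long, was chosen in the same way among the contigs silent under drought. It had 0 counts in each drought library, against 217, 177.02 and 86 counts in controls, that is 9.49, 7.65 and 8.75 CPM. With the drought group set to 3 counts it was at least 179-fold lower under drought, but missed the threshold (edgeR adjusted p = 0.0829, from 1.39e-06 to 0.294 over 15 alternatives). At the first sampling it had 0.701, 2.45 and 0 CPM under drought, against 3.77, 4.26 and 1.64 CPM in controls, so that only drought replicate 2 overlapped the controls.

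**Figure D5:**
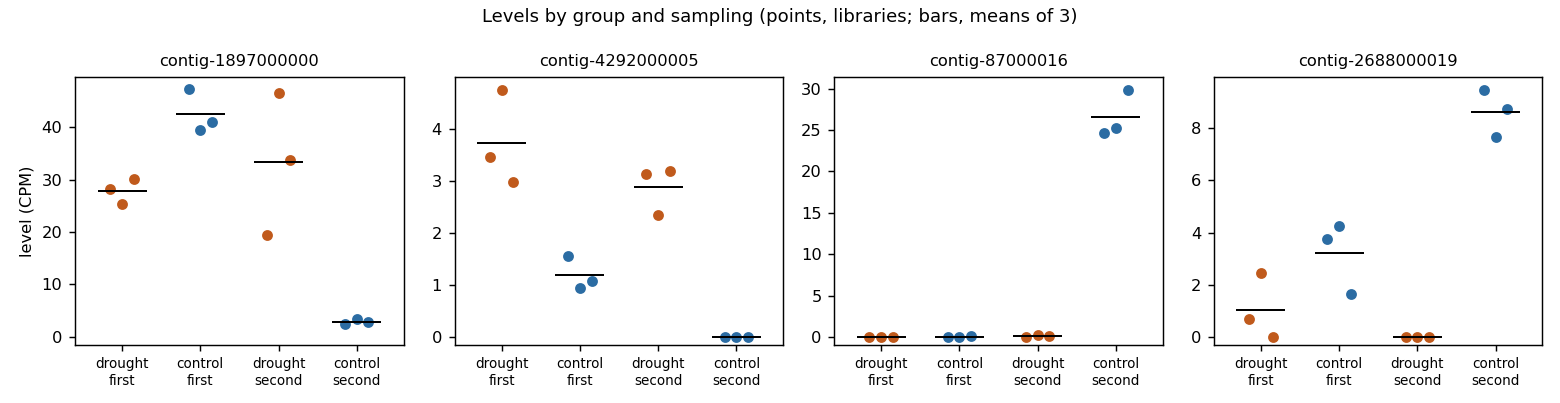
Level in CPM (vertical axis) of the 4 named contigs in each library of the 4 groups, first and second sampling (points; bars are means of 3). The second-sampling controls are the lowest group for contig-1897000000 (2.49 to 3.33 CPM) and contig-4292000005 (0), and the highest for contig-87000016 (24.6 to 29.9 CPM) and contig-2688000019 (7.65 to 9.49 CPM).

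Across contigs, the second-sampling control mean lay farther from the first-sampling controls than the drought mean did, by an amount that depended on the libraries that stood apart. Relative to the mean of the first-sampling controls on log2(CPM + 1), the second-sampling drought mean lay at a median distance of 0.33 and the second-sampling control mean at 0.46, and the controls were the farther group for 59.8% of the contigs tested. Among contigs whose groups did not overlap, the controls were farther in 64.1% of those higher under drought and in 64.0% of those lower. In TPM the drought mean differed from the first-sampling control mean by 18.7% and the control mean by 27.5%. Single libraries differed from it by 27.2%, 27.1% and 20.3% for drought and by 41.0%, 21.5% and 34.5% for control, so control replicates 1 and 3 lay farther than any drought library and control replicate 2 did not. Without drought replicate 3, which resembled a first-sampling control, the share of contigs with the controls farther was 50.7% and the median distances were 0.44 for drought and 0.46 for control; without control replicate 2 the share was 67.6%. Without both it was 59.8%, with median distances of 0.44 for drought and 0.6 for control, so the difference was nearly lost only with drought replicate 3 left out and control replicate 2 kept. Which of these libraries stand for their group was not tested.

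Compared with the first sampling, the fitted fold changes of the second were somewhat larger, and no single contig passed edgeR's test of the difference. The share of contigs without overlap was similar, at 11.7% higher and 11.7% lower at the second and 11.6% and 10.8% at the first. From the rare to the abundant class it was 15.8%, 22.2%, 28.0% and 29.4% at the second. At the first it was 14.2%, 19.9%, 27.9% and 32.3% in the same classes. The median absolute log2 fold change was 0.78 at the second and 0.59 at the first sampling, and at the first 5.34% of contigs were higher and 7.88% lower at an unadjusted p under 0.05, 2.9% were at least 4-fold higher and 7.15% at least 4-fold lower. The difference between the drought effects passed the threshold for 0 contigs (0%) with edgeR (3,081 or 9.17% at an unadjusted p under 0.05, 420 with DESeq2, 4 with limma-trend on log2(TPM + 1)). The samplings share no library, so the first gives a separate view of the contigs that moved at the second. Of the 3,936 contigs higher without overlap at the second sampling, 24.5% were also higher and 3.02% lower without overlap at the first, against 11.6% and 10.8% of all contigs tested. Of the 3,918 that were lower, 22.9% were also lower and 1.79% higher. Contigs with the same direction at both samplings were 2.87% (higher) and 2.67% (lower) of those tested. Contigs with opposite directions, such as contig-1897000000, numbered 189 (0.562%).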

How the data were processed

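Leaf mRNA libraries were prepared with a strand-specific mRNA kit. Cutadapt 1.9, used to trim reads, and RSEM, used to estimate counts per contig, are listed in the submitters' processing notes; the assembler, the aligner and the RSEM version were not given in the sources used here. RSEM divides reads that match several contigs, so near-identical contigs depend on each other. The deposited estimated counts are not normalized, and the deposited TPM values are scaled by the authors for contig length and to a fixed sum. FPKM was not used.

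Estimated counts were rounded for the count models only. All 12 libraries were fitted in 4 groups with edgeR 4.0.16 (R 4.3.3): TMM, the default low-count filter, quasi-likelihood test, Benjamini-Hochberg adjustment at 0.05; the standard error is the log2 fold change over the square root of F. CPM values use TMM-scaled library sizes. Alternatives used DESeq2 1.42.0, limma-trend 3.58.1, other filters and size factors, a replicate block, a fit of 6 libraries, and leaving libraries out. The fit was tested on simulated data. No 2 replicates agreed within sampling noise (lowest chi-square per degree of freedom 62.8). P-values of the main fit rest on the spread between libraries within all 4 groups, with 3 libraries a group, moderated across contigs. They do not measure the spread of the 6 compared libraries alone. In the fit of 6 the edgeR adjusted p of contig-1897000000 was 0.0954, against 0.016 in the main fit.

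Named contigs are, in each direction, the one with the smallest p and the one silent in the lower group with the highest lowest-library CPM. Other contigs were described after their values were seen. Contigs, limits and lists were chosen with earlier results of these data known. Counting intervals and the floor of 3 counts cover counting error only.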

Additional observations from a re-analysis of the deposited data

Results flagged for a closer look

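The drought effect of contig-1897000000 had opposite directions at the 2 samplings. All 3 drought libraries lay above the 3 controls at the second sampling and all 3 below them at the first. The difference between the effects was 4.12 on the log2 scale (SE 0.45) and narrowly missed the threshold (edgeR adjusted p = 0.0557). Drought levels were 33.3 ± 13.6 CPM at the second and 27.9 ± 2.36 CPM at the first sampling, and control levels 2.92 ± 0.418 CPM and 42.6 ± 4.15 CPM (SD, n = 3 each).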

How the results depend on the processing

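The number of contigs past the threshold, 3 in the fit used above, was 4,290 with DESeq2, 229 and 237 with limma-trend on log2(TPM + 1) and log2(TPM + 0.1), 484 where all libraries had to reach 10 counts (184 higher, 300 lower), 6 without a filter, 1 in the fit of 6 libraries, 0 with the replicate block, 3,577 without control replicate 2 and drought replicate 3, and 0 to 3,961 with single libraries left out. The difference between the samplings, 0 contigs, was 420, 4 and 4 with the first 3 of these, 1 with at least 10 counts, 2 without both libraries and 0 to 4 with single ones left out. The median absolute log2 fold change of 0.78 was 0.54 and 0.8 with limma-trend, 0.61 with at least 10 counts, 0.9 without a filter, 0.79 with the replicate block, 0.71 in the fit of 6, 1.07 without both libraries and 0.72 to 1.03 with single ones left out. Contigs silent in controls (9) and under drought (33) numbered 42 and 118 at 3 counts, 3 and 9 at 30 counts, 23 and 66 with up to 3 counts in the silent group, 191 and 153 without both libraries, and 13 to 79 and 42 to 92 without single ones. The share without overlap was 29.4% for abundant and 15.8% for rare contigs. It was 27.1% and 18.0% with first-sampling classes, 31.4% for abundant contigs with TPM classes, 81.9% and 44.4% without both libraries, and 30.3% to 66.4% and 21.3% to 30.6% without single ones; fewer libraries overlap less by construction. The TPM share of 31.1% was 42.4% without both libraries and 27.7% to 39.4% without single ones. Where no construction is named, the cause was not tested.

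By the labels, same-numbered libraries of the groups share only a number. Their deviations from the group means correlated with -0.05, 0.18 and -0.06, against -0.17 to 0.14 for pairs of unlike number. Of the 6 libraries 2 correlated best with their own number. Whether same-numbered libraries share a batch was not tested. The shallowest library limits silence calls to 11,239,487 counts.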

Other observations

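Expression in a single library was more frequent than silence of a whole group, but the criteria differ. The first asks for 10 counts in 1 library and the second in each of 3, so the order is no result by itself. Contigs with at least 10 counts in 1 library and 0 in the other 5 of the second sampling numbered 40, 42 and 142 in drought replicates 1, 2 and 3, and 66, 111 and 81 in control replicates 1, 2 and 3. The highest numbers within each treatment belonged to drought replicate 3 and control replicate 2. Contigs with 0 counts in 1 library and at least 10 in each of the other 5 numbered 28, 12 and 39 for drought and 27, 10 and 112 for control, the last in the shallowest library.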
